A study of Homo sapiens with 4 samples.

Results

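Ribosome-protected fragments of HL60, a human leukemia cell line, were set against those of the library labelled MOLM13, gene by gene. The comparison covered 11494 nuclear protein-coding genes of the 19896 such genes and the 60651 genes of all kinds in the files, namely those with at least 600 aligned bases in either library. The study holds 4 such lines, HL60, MOLM13, THP_1 and K562, with 1 library each and a design that names no treatment. HL60 was grown in IMDM and MOLM13 in DMEM, both with fetal bovine serum, so line, medium and library cannot be told apart. Without a second library of either line no difference has a replicate check, and no p-value is given.

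HL60 is known as a line of myeloblasts and promyelocytes with an amplified MYC gene. MOLM13 is known as a line from an acute monocytic leukemia that joins KMT2A to MLLT3 and carries an internal tandem duplication in FLT3. Ribosome profiling digests RNA that ribosomes do not cover and sequences the protected fragments, so the signal of a coding gene reflects both the amount of its mRNA and how many ribosomes are on it. Neutrophil precursors make their granule enzymes in a short window at the promyelocyte stage, under factors of the C/EBP, GFI1 and PU.1 families. Blood stem and progenitor cells are known for CD34, the HOXA genes and the factors ERG and GATA2.

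HL60 held 973 megabases of aligned sequence and the library labelled MOLM13 344, a 2.83-fold difference in depth. Levels are TPM, a relative abundance per length of transcript, summed per gene and scaled between the 2 libraries. Differences are log2 of HL60 over the library labelled MOLM13 after adding 1 to each scaled TPM. A gene was called at a log2 difference of 2 or more, which is 4-fold, with at least 600 aligned bases in the higher library. Folds are ratios of scaled TPM, without the added 1. Division of aligned bases by the modal fragment length of 29 gives footprint equivalents. Their 95% exact binomial intervals were placed around the folds of scaled TPM and cover counting error only. Footprint equivalents are not divided by transcript length, so their ratio can differ from the fold and lie outside its interval. The name of the file deposited under the MOLM13 label differs from that label.

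That label was checked against known genes of the line. FLT3 and MEIS1 were listed at 0 in both libraries, and KIT was listed at 0 in HL60 and at 0.859 in the library labelled MOLM13. Of 6 monocyte markers, FCGR1A was listed at 0 in both libraries and CD68, CSF1R and ITGAM only in the library labelled MOLM13, and the 6 summed to 99.9 in HL60 and 1.58 there. The pan-leukocyte phosphatase PTPRC (CD45) was present in both, at 90.6 in HL60 and 162 in the library labelled MOLM13. Absence of FLT3 and of monocyte markers goes against the label, so every direction below is drawn against "the library labelled MOLM13" and not against the line. For HL60 the 6 granulocyte precursor markers were all above 0 and summed to 10214, against 35.3 in the library labelled MOLM13.

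Most genes lay close together, and at the threshold used the calls were more often lower than higher in HL60. Of the 11494 protein-coding genes, 960 (8.35%) were called higher in HL60 and 1265 (11%) lower. At a log2 difference of 3 the split was even, with 494 higher and 491 lower, and so it was with 5 added to each value in place of 1, with 399 higher and 390 lower. A further 6222 genes (54.1%) were within a log2 difference of 1, and the median over all tested genes was -0.24, with quartiles of -1.10 and 0.64. Listing at 0 carried much of the higher side: 620 of the 960 higher genes were listed at 0 in the shallower library labelled MOLM13, and 452 of the 1265 lower genes were listed at 0 in HL60. Left with genes above 0 in both, 340 were higher and 813 lower, and the part of depth in this split was not tested. The calls were also made from aligned bases not divided by length, and 850 higher and 1146 lower genes passed both ways.

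**Figure D1:**
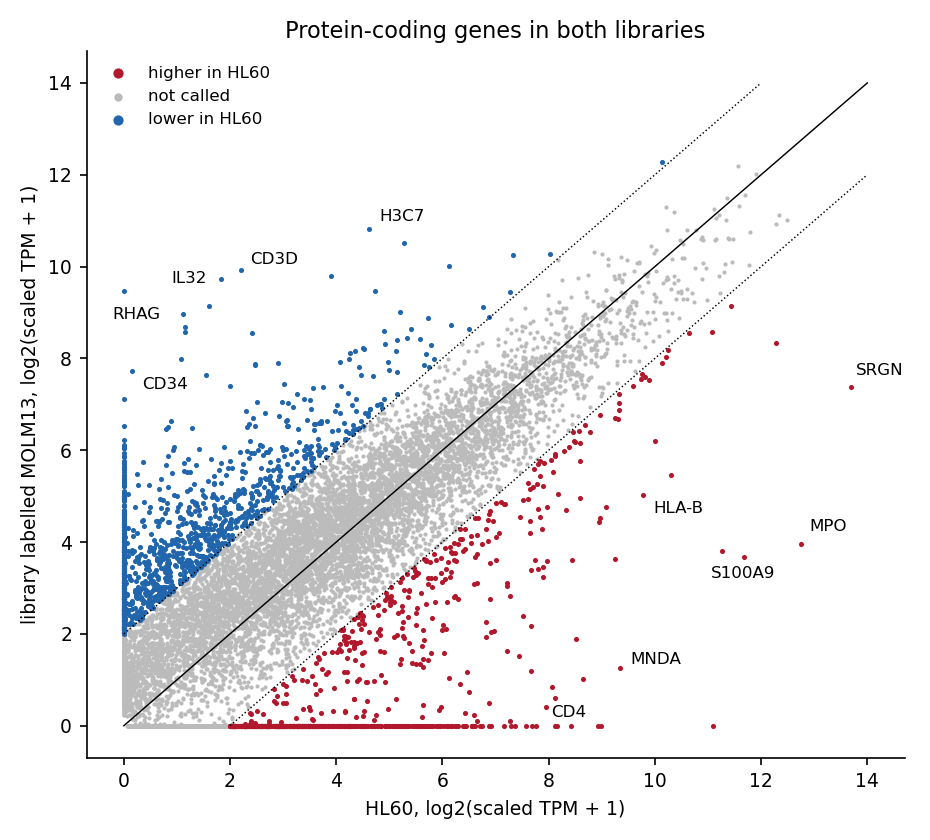
Each point is 1 of 11494 protein-coding genes, with log2(scaled TPM + 1) in HL60 on the x axis and in the library labelled MOLM13 on the y axis; the solid line marks equality and the dotted lines a log2 difference of 2. The 960 genes called higher in HL60 lie at the lower right, among them SRGN, MPO and S100A9, and the 1265 called lower at the upper left, among them CD3D, IL32, RHAG and CD34.

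Granule proteins of neutrophil precursors were higher in HL60, with the highest median of the 38 gene lists compared. Of the primary granule list, 11 of 14 measured members were higher in HL60 and 1 lower, with a median log2 difference of 5.43. This stands against 8.92% higher and 11.8% lower, and a median of -0.28, over the 10763 coding genes whose scaled TPM reached 1 in either library, the floor used for all lists. MPO, the myeloperoxidase that makes hypochlorous acid, lies on chromosome 17 (bases 58269855 to 58280935 of the minus strand) in hg38. It had a scaled TPM of 6852 in HL60 and 14.6 in the library labelled MOLM13, from 644085 and 478 footprint equivalents, which is 469-fold higher (95% interval 429 to 514). SRGN, the proteoglycan serglycin that packs granule proteases, was the highest of the list in HL60, at 13316 in HL60 and 164 in the library labelled MOLM13 (81.0-fold, interval 77.5 to 84.6).

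The serine proteases of the same granules followed with lower levels. CTSG (cathepsin G), on chromosome 14 (bases 24573518 to 24576250 of the minus strand), was at 2466 in HL60 and 12.9 in the library labelled MOLM13, 191-fold higher (interval 165 to 223). AZU1 (azurocidin, an inactive protease with antibacterial action) was at 363 in HL60 and 2.72 in the library labelled MOLM13. PRTN3 (proteinase 3), its neighbour on chromosome 19, was at 174 in HL60 and 1.88 in the library labelled MOLM13, and ELANE (neutrophil elastase) at 112 in HL60 and 2.84 in the library labelled MOLM13. All 4 were called higher in HL60, with log2 differences from 4.88 for ELANE to 7.47 for CTSG. BPI, which binds bacterial lipopolysaccharide, was at 397 in HL60 and 1.02 in the library labelled MOLM13, a 389-fold difference whose interval of 249 to 647 reflects only 19.3 footprint equivalents in the shallower library.

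Other secreted defence proteins lay in the same direction. LYZ (lysozyme) was at 606 in HL60 and 11.3 in the library labelled MOLM13. The eosinophil-type ribonuclease RNASE2 was at 348 in HL60 and 11.2 in the library labelled MOLM13, and its close relative RNASE3 at 21.8 in HL60 and 0.257 in the library labelled MOLM13. The defensin DEFA4 was at 36.9 in HL60 and listed at 0 in the library labelled MOLM13. PRSS57, another protease of primary granules, was the exception: it was listed at 0 in HL60 and at 64.8 in the library labelled MOLM13. CD63, a membrane protein of these granules that was the highest of the list in the library labelled MOLM13, and the elastase inhibitor SERPINB1 were not called, at log2 differences of -0.97 and 1.42.

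Proteins of the later neutrophil granules were few and split. Of 14 listed, 8 reached the floor, with 4 higher and 2 lower in HL60. CRISP3, a secreted protein of specific granules, was at 1.23 in HL60 and 411 in the library labelled MOLM13, 335-fold higher in the library labelled MOLM13 (interval 269 to 424). The gelatinase MMP9 was at 10.8 in HL60 and listed at 0 in the library labelled MOLM13, and the chitinase-like CHI3L1 at 44.6 in HL60 and 3.59 in the library labelled MOLM13. QPCT, which cyclises N-terminal glutamine, was called lower at 6.96 in HL60 and 35.9 in the library labelled MOLM13 by TPM but not by aligned bases.

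S100 proteins, small calcium sensors, went both ways. Of the list, 5 of 10 measured members were higher in HL60 and 3 lower, with a median log2 difference of 2.14. Of the 5 higher genes, 4 were listed at 0 in the library labelled MOLM13, and the 5 members above 0 in both libraries had a median of 0.13. S100A8 and S100A9 form calprotectin, the main cytosolic protein of neutrophils. S100A8 was at 2191 in HL60, from 26330.2 footprint equivalents, and was listed at 0 in the library labelled MOLM13. S100A9 was at 3266 in HL60 and 11.7 in the library labelled MOLM13, 279.7-fold higher (interval 221 to 359). The inflammatory S100A12 and the placental S100P were at 24.3 and 216 in HL60 and listed at 0 in the library labelled MOLM13. In the opposite direction, S100A10, the partner of annexin A2, was at 41.2 in HL60 and 400.1 in the library labelled MOLM13, and S100A6 at 154 in HL60 and 695 in the library labelled MOLM13. S100A4 differed by a log2 of only 0.13, so the family did not move as one.

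The phagocyte oxidase, which makes superoxide at the phagosome, was higher in HL60 in its phagocyte-restricted subunits. Of the list, 6 of 9 measured members were higher in HL60 and 0 lower, with a median log2 difference of 2.39. Of the 6 higher genes, 3 were listed at 0 in the library labelled MOLM13, and 4 were also called by aligned bases. The 6 members above 0 in both libraries had a median of 2.01. CYBB, the catalytic gp91phox subunit, on chromosome X (bases 37780059 to 37813461 of the plus strand), was at 266 in HL60 and 0.800 in the library labelled MOLM13, 332-fold higher (interval 239 to 477). The cytosolic subunits NCF4 and NCF1 were at 141 and 8.56 in HL60 and listed at 0 in the library labelled MOLM13; NCF1 has near-identical pseudogene copies and its level is uncertain. CYBA, the p22phox partner of CYBB, was present in both and not called, at 378 in HL60 and 201 in the library labelled MOLM13. The broadly used GTPase RAC1 was at 7.96 in HL60 and 22.2 in the library labelled MOLM13 and not called, while its blood-cell relative RAC2 was at 619.9 in HL60 and 176 in the library labelled MOLM13, a log2 difference of 1.81, also under the threshold.

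Monocyte and macrophage genes were higher in HL60, and most were listed at 0 in the library labelled MOLM13. On this list 12 of 16 measured members were higher in HL60 and 1 lower, with a median log2 difference of 2.72, and 10 of the 12 higher genes were listed at 0 in the library labelled MOLM13. The 5 members above 0 in both had a median of 1.93. TYROBP (DAP12), the adaptor of activating receptors, was at 204 in HL60 and listed at 0 in the library labelled MOLM13. Another such adaptor, the Fc receptor chain FCER1G, was at 115 in HL60 and 21.2 in the library labelled MOLM13. CD14, the co-receptor for lipopolysaccharide, was at 46.5 in HL60 and 1.55 in the library labelled MOLM13, and the lysosomal CD68 at 27.1 in HL60 and listed at 0 in the library labelled MOLM13. VCAN, the matrix proteoglycan versican, was the only one called lower, at 0.990 in HL60 and 24.5 in the library labelled MOLM13, and AIF1, an actin-binding protein of macrophages, was high in both at 943 in HL60 and 435 in the library labelled MOLM13.

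Several regulators known from granulocyte and monocyte formation had the same direction. Among myeloid transcription factors, 7 of 21 measured members were higher in HL60 and 2 lower, with a median log2 difference of 1.26, and the 17 members above 0 in both libraries had a median of 0.78. CEBPE, needed for late granule genes, was at 247 in HL60 and 0.325 in the library labelled MOLM13, with 3.97 footprint equivalents in the library labelled MOLM13. SPI1 (PU.1), which directs myeloid fate, was at 235 in HL60 and 10.0 in the library labelled MOLM13. The repressor GFI1 was at 74.0 in HL60 and listed at 0 in the library labelled MOLM13, whereas its paralog GFI1B, known from red cell and platelet precursors, was at 0.0139 in HL60 and 10.6 in the library labelled MOLM13. ID1, an inhibitor of basic helix-loop-helix factors, was at 4.66 in HL60 and 131 in the library labelled MOLM13. MYB, RUNX1 and CEBPB were not called, with log2 differences of 0.36, -0.79 and 1.17.

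**Figure D2:**
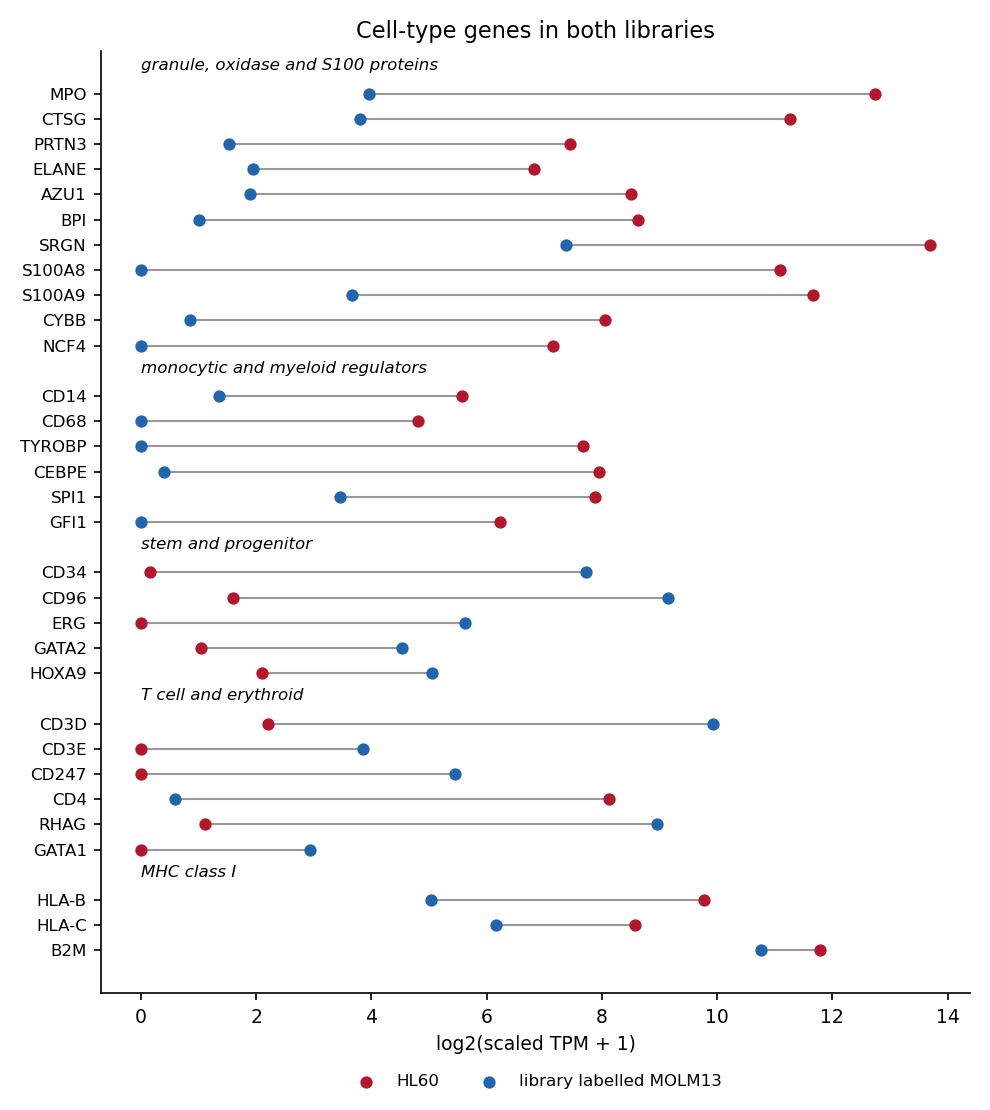
Genes of 5 groups run down the page, with log2(scaled TPM + 1) on the x axis and 1 point for each library. Among the genes shown, HL60 lies to the right for granule, oxidase, S100 and myeloid regulator genes. The library labelled MOLM13 lies to the right for the stem and progenitor genes shown and for CD3D, CD3E, CD247 and RHAG. CD4, HLA-B and HLA-C are higher in HL60. The genes were picked with their values known and do not stand for whole groups. Members in the opposite direction, such as PRSS57, S100A10, S100A6 and LMO2, are not shown.

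Promoter sequence is shown for 3 granule genes, which moved together, and for 2 genes of the opposite direction. Of the 46 protein-coding genes chosen by size, 34 have an entry in the RefSeq promoter table (GRCh38.p14). The 250 bases before each start are given 5′ to 3′ on the gene's strand. Capitals mark 3 motifs searched on both strands. The first is the core GAGGAA that PU.1 and other ETS factors bind. A loose C/EBP core, TTNCNNAA, with N for any base, is the second. For GATA factors the core AGATAA was used.
CTSG, chr14:24576251-24576500, minus strand: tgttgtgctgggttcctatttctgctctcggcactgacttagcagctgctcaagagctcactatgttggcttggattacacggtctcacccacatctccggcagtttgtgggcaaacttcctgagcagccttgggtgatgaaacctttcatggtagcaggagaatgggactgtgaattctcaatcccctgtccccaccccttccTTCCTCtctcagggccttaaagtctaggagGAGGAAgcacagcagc
PRTN3, chr19:840749-840998, plus strand: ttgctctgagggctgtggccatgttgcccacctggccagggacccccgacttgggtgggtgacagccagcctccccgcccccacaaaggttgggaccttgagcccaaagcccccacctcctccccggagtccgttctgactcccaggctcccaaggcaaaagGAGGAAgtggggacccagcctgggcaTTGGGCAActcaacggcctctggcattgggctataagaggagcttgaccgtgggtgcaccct
AZU1, chr19:827587-827836, plus strand: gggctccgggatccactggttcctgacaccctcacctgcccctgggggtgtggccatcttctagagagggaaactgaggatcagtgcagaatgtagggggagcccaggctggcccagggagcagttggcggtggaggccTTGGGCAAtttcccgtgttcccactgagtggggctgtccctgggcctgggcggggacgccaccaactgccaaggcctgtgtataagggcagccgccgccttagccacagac
CD34, chr1:207911126-207911375, minus strand: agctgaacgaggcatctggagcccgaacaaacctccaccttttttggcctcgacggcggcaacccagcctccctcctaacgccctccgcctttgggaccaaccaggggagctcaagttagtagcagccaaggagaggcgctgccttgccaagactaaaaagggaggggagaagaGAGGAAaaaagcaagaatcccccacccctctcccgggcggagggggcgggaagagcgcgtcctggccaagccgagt
RHAG, chr6:49636840-49637089, minus strand: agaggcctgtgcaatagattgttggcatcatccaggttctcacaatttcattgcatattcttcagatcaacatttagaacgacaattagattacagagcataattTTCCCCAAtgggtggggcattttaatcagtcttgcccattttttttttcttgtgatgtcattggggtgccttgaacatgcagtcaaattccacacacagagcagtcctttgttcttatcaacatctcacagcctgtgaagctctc

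The ETS core was present 2 times in CTSG, 1 time in PRTN3 and 1 time in CD34, and the C/EBP core 1 time each in PRTN3, AZU1 and RHAG. No window shown held the GATA core, and no match in these windows overlapped another. The promoters of CEBPE, CD3D and CRISP3 were searched as well and are not shown. CEBPE and CD3D held the ETS core 1 time each, and CRISP3 held it 1 time and the C/EBP core 5 times. Over all 35116 promoters of the table, 23.6% held the ETS core, 33.2% the C/EBP core and 9.17% the GATA core in the same 250 bases. Such short motifs are frequent, so these matches describe the letters and nothing about binding.

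Stem and progenitor genes were lower in HL60. Of the list, 1 of 15 measured members were higher in HL60 and 10 lower, with a median log2 difference of -3.03. CD34, the surface sialomucin used to isolate blood stem cells, lies on chromosome 1 (bases 207880972 to 207911402 of the minus strand). It was at 0.115 in HL60 and 212 in the library labelled MOLM13, from 26.9 and 6600.4 footprint equivalents. By scaled TPM it was 1839-fold higher in the library labelled MOLM13 (interval 1263 to 2793). The footprint equivalents give a smaller fold, also when depth is allowed for. CD96, an adhesion receptor found on lymphocytes and on leukemic progenitors, was at 2.03 in HL60 and 564 in the library labelled MOLM13, 278-fold higher in the library labelled MOLM13 (interval 240.4 to 324). Among the factors, ERG was listed at 0 in HL60 and at 48.6 in the library labelled MOLM13, GATA2 was at 1.07 in HL60 and 22.2 in the library labelled MOLM13, and SOX4 at 4.87 in HL60 and 32.1 in the library labelled MOLM13. LMO2, a bridging factor of the same programme, was the only member called higher, at 31.1 in HL60 and 5.77 in the library labelled MOLM13.

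HOXA genes and their cofactors were also lower in HL60, at low levels in both libraries. Of 16 listed, 12 reached the floor, 3 were called lower and 1 higher, and the median was -1.67. HOXA9, a driver of progenitor self-renewal, was at 3.29 in HL60 and 32.2 in the library labelled MOLM13, and HOXA10 at 2.68 in HL60 and 17.6 in the library labelled MOLM13. HOXA11 had the opposite direction, at 6.74 in HL60 and listed at 0 in the library labelled MOLM13; it shares exon sequence with the antisense gene HOXA11-AS, and the counting used no strand. MEIS1, the usual partner of HOXA9, was listed at 0 in both.

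MLLT3 and KMT2A were read exon by exon, because MOLM13 is known to join the start of KMT2A to the end of MLLT3. THP_1 is known for a rearrangement of the same 2 genes. MLLT3, a subunit of the super elongation complex, was called lower at 0.845 in HL60 and 7.93 in the library labelled MOLM13. Over exons 1 to 5 of its 11-exon transcript, mean coverage was 2.20 in HL60 and 4.21 in the library labelled MOLM13, in reads per base and not scaled for depth. Over exons 6 to 10 it was 3.17 in HL60 and 20.2 in the library labelled MOLM13. Later over earlier exons this is a ratio of 1.44 in HL60 and 4.79 in the library labelled MOLM13, with 1.81 in THP_1 and 2.45 in K562. For KMT2A, a histone methyltransferase, exons 11 to 35 over exons 1 to 10 gave 2.36 in HL60 and 0.692 in the library labelled MOLM13, with 1.34 in THP_1 and 1.38 in K562. The library labelled MOLM13 had the highest MLLT3 ratio and the lowest KMT2A ratio of the 4. THP_1 had a lower MLLT3 ratio than K562 and a KMT2A ratio close to that of K562. The exon ranges were chosen after the coverage was seen, and what joins these values to a fusion transcript was not tested.

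**Figure D3:**
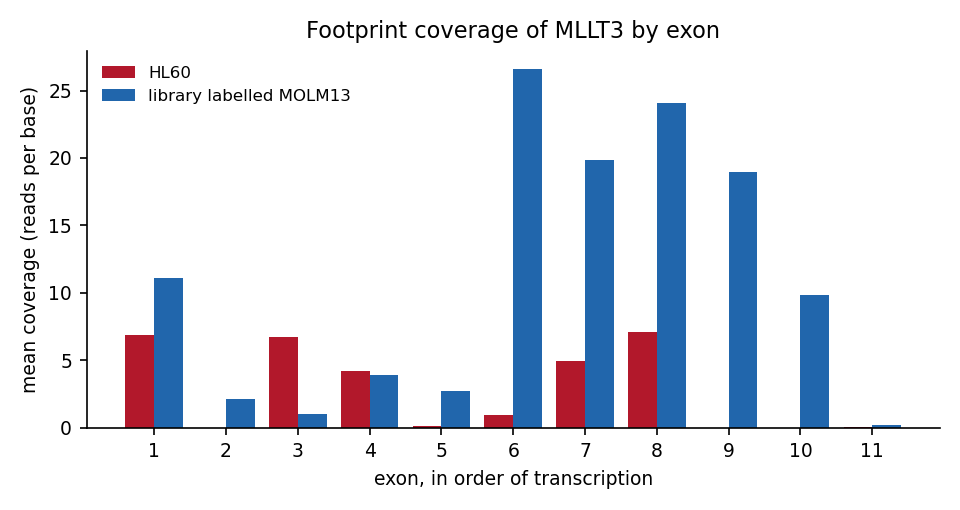
Mean coverage in reads per base, not scaled for depth, is shown for the 11 exons of MLLT3 in order of transcription, HL60 left and the library labelled MOLM13 right in each pair. The library labelled MOLM13 is at 9.86 to 26.6 in exons 6 to 10, while no exon of HL60 exceeds 7.12.

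The library labelled MOLM13 carried part of a T and NK cell set. Of the list, 1 of 11 measured members were higher in HL60 and 8 lower, with a median log2 difference of -3.28, and 7 of the 8 lower genes were listed at 0 in HL60. The 4 members above 0 in both libraries had a median of -1.59. CD3D, a chain of the T cell receptor complex on chromosome 11 (bases 118339075 to 118342705 of the minus strand), was at 3.63 in HL60 and 971 in the library labelled MOLM13, 267-fold higher in the library labelled MOLM13 (interval 213 to 340.2). Its partner chains CD247 (zeta) and CD3E were listed at 0 in HL60, against 43.0 and 13.5 in the library labelled MOLM13, but CD3G, CD2 and the kinase LCK were listed at 0 in both. Outside the list, IL32, a cytokine first described in T and NK cells, was at 2.56 in HL60 and 845 in the library labelled MOLM13, and the lymphocyte cathepsin CTSW at 1.22 in HL60 and 381 in the library labelled MOLM13. CD4, a co-receptor of T cells that monocytes also carry, was in the opposite direction at 277 in HL60 and 0.508 in the library labelled MOLM13, 546-fold higher (interval 336 to 955). The 6 T cell markers summed to 3.63 in HL60 and 1027 in the library labelled MOLM13, with CD3D holding most of it.

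Several red cell genes were lower in HL60 as well. Of the erythroid list, 0 of 11 measured members were higher in HL60 and 6 lower, with a median log2 difference of -2.02. RHAG, the Rh-associated ammonium channel of red cells on chromosome 6 (bases 49605175 to 49636839 of the minus strand), was at 1.17 in HL60 and 496 in the library labelled MOLM13, 424-fold higher in the library labelled MOLM13 (interval 334 to 545). GATA1, the main erythroid factor, and the embryonic globin HBE1 were listed at 0 in HL60, against 6.69 and 12.1 in the library labelled MOLM13. The red cell genes HBZ and EPB42 were listed at 0 in both, so RHAG was high without them. Carbonic anhydrase CA2 was at 34.5 in HL60 and 206 in the library labelled MOLM13, and the transferrin receptor TFRC, used by all dividing cells, was alike at 348 in HL60 and 290.1 in the library labelled MOLM13. Platelet genes were split: of 6 measured, 1 was called higher and 2 lower, with a median of -0.59, and the 3 members above 0 in both libraries had a median of -0.06. ITGA2B, the platelet integrin alpha chain, was at 3.97 in HL60 and 89.8 in the library labelled MOLM13. The platelet chemokine PPBP was at 6.30 in HL60 and listed at 0 in the library labelled MOLM13, while PF4, GP9 and GP1BA were listed at 0 in both.

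Keratins and mesenchymal genes were lower in HL60 than in the library labelled MOLM13. Of the list, 1 of 20 measured members were higher in HL60 and 9 lower, with a median log2 difference of -1.72. The simple keratins KRT7, KRT18, KRT8 and KRT19, filaments of epithelial cells, had log2 differences of -3.81, -3.85, -3.59 and -3.24, with KRT7 at 35.6 in HL60 and 513 in the library labelled MOLM13. VIM (vimentin) was at 51.7 in HL60 and 473 in the library labelled MOLM13 and FN1 (fibronectin) at 4.28 in HL60 and 32.6 in the library labelled MOLM13. The defining epithelial genes EPCAM and CDH1 were low in both, at 8.53 and 1.01 in HL60 and 29.6 and 4.80 in the library labelled MOLM13. Fibroblast collagens COL1A1, COL1A2 and COL3A1 lay under 5 in both libraries. The 5 epithelial markers summed to 39.5 in HL60 and 455 in the library labelled MOLM13. By deposited TPM, KRT8, KRT18, KRT19, EPCAM and CDH1 were at 126, 215, 75.4, 80.5 and 3.91 in K562. In THP_1 they were at 19.8, 14.6, 5.96, 14.9 and 1.39. These genes were thus not particular to the library labelled MOLM13, and the source of their signal was not tested.

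Antigen presentation by MHC class I was higher in HL60. Of the list, 8 of 21 measured members were higher in HL60 and 1 lower, with a median log2 difference of 1.63, and 19 of the 21 had a positive difference. HLA-B was at 879 in HL60 and 31.7 in the library labelled MOLM13 and HLA-C at 382 in HL60 and 70.6 in the library labelled MOLM13. These heavy-chain genes differ between people and reads were set on 1 reference, so both of these levels are uncertain. Their shared light chain B2M was high in both at 3542 in HL60 and 1736 in the library labelled MOLM13, a log2 difference of 1.03. The immunoproteasome subunits PSMB10, PSMB9 and PSMB8 were higher in HL60, at 318, 67.5 and 241, than in the library labelled MOLM13, at 24.9, 10.8 and 51.8; PSMB8 was not called by aligned bases. MHC class II genes were low in both, with the invariant chain CD74 at 16.4 in HL60 and 3.32 in the library labelled MOLM13.

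Interferon-stimulated genes went both ways. On the list 4 of 22 measured members were higher in HL60 and 5 lower, with a median log2 difference of 0.22, and without members listed at 0 the median was -0.24. RSAD2 (viperin), an antiviral enzyme, was listed at 0 in HL60 and at 53.2 in the library labelled MOLM13, and IFI44 was at 1.18 in HL60 and 51.4 in the library labelled MOLM13. IFITM1, which blocks virus entry, was at 17.6 in HL60 and 149.7 in the library labelled MOLM13, while its neighbour IFITM2 was alike at 153 in HL60 and 151 in the library labelled MOLM13. IFI6, an interferon-induced membrane protein, was at 34.1 in HL60 and listed at 0 in the library labelled MOLM13.

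Surface receptors that serve as leukemia targets were also divided. Of the list, 6 of 16 measured members were higher in HL60 and 3 lower, with a median log2 difference of 1.42, but the 13 members above 0 in both libraries had a median of 0.26. CD33, a sialic acid receptor of myeloid cells, was at 73.6 in HL60 and 5.95 in the library labelled MOLM13, and CLEC12A (CLL-1) at 118 in HL60 and listed at 0 in the library labelled MOLM13. The chemokine receptor CXCR4 was at 202 in HL60 and 9.42 in the library labelled MOLM13. The hyaluronan receptor CD44 and the integrin ITGB1 were lower in HL60, at 18.7 and 24.9, than in the library labelled MOLM13, at 126 and 196. Of 18 measured cytokine receptors, 6 were called higher, of which 5 were listed at 0 in the library labelled MOLM13, and CSF3R, the G-CSF receptor, was alike at 9.82 in HL60 and 9.91 in the library labelled MOLM13.

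MYC, a factor of growth that is amplified in HL60, was higher in HL60, while 2 cell cycle inhibitors were lower. MYC was at 853 in HL60 and 187 in the library labelled MOLM13, 4.56-fold higher (interval 4.43 to 4.69), and its partner MAX was at 47.1 in HL60 and 37.2 in the library labelled MOLM13 and not called. CDKN1A, which encodes the inhibitor p21, was at 1.37 in HL60 and 15.8 in the library labelled MOLM13, and CDKN2A, which encodes p16 and p14ARF, was at 7.75 in HL60 and 41.9 in the library labelled MOLM13. Of 26 ribosome biogenesis genes linked to MYC none was called in either direction, with a median of 0.28; nucleolin (NCL) was at 1315 in HL60 and 893 in the library labelled MOLM13, and NPM1 at 555 in HL60 and 177 in the library labelled MOLM13, a log2 difference of 1.65.

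Ribosomal protein genes leaned to HL60 by small differences, while translation factors lay close to even. Of the 80 measured ribosomal protein genes 7 were called higher and 1 lower in HL60, with a median of 0.60 and 62 of 80 positive. The median over all coding genes at the floor used for lists was -0.28. Of the 7, 4 were listed at 0 in the library labelled MOLM13, among them RPL26 at 189 in HL60. Every cell needs RPL26, so its 0 is a listing and not absence. RPS14 was higher at 2163 in HL60 and 378 in the library labelled MOLM13, and RPL30 lower at 1126 in HL60 and 4941 in the library labelled MOLM13; both have processed copies in the genome. Among 31 translation factors only PABPC4, a poly(A)-binding protein, was called, at 10.5 in HL60 and 56.2 in the library labelled MOLM13, and the median was -0.03.

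Cell cycle genes were close to even and single histone genes were not. Of 35 replication and cell cycle genes, 1 was higher and 2 were lower, with a median of -0.06, and PCNA, the replication clamp, was at 725 in HL60 and 551 in the library labelled MOLM13. Of 40 core histone genes, 11 were called lower and 2 higher. H3C7 was at 23.4 in HL60 and 1806 in the library labelled MOLM13, H3C3 at 37.7 in HL60 and 1468 in the library labelled MOLM13 and H2AC13 at 6.44 in HL60 and 239 in the library labelled MOLM13, while H3C4 was at 2755 in HL60 and 561 in the library labelled MOLM13. Sums per family differed less than these genes. The H2A genes summed to 7644 in HL60 and 5730.0 in the library labelled MOLM13, and the H2B genes, of which 1 was called higher and 4 lower, to 11143 in HL60 and 7335 in the library labelled MOLM13, a log2 ratio of 0.60. The H3 genes summed to 9518 in HL60 and 11373 in the library labelled MOLM13, and the H4 genes, none of them called, to 13076 in HL60 and 13459.8 in the library labelled MOLM13. Copies of 1 histone encode the same or nearly the same protein, so how reads were shared among them is uncertain. The linker histone H1-5 was at 14.01 in HL60 and 881 in the library labelled MOLM13, 62.9-fold higher in the library labelled MOLM13 (interval 56.3 to 70.5).

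Actin regulators and glycolysis genes leaned to HL60. Of 26 actin regulators, 5 were higher and 0 lower, with a median of 0.46. ARHGDIB, a GTPase inhibitor of blood cells, was at 4983 in HL60 and 323 in the library labelled MOLM13, and CORO1A (coronin) at 1029 in HL60 and 72.6 in the library labelled MOLM13. For glycolysis, 4 of 21 measured members were higher in HL60 and 2 lower, with a median log2 difference of 1.01. Of the 4 higher genes, 3 were listed at 0 in the library labelled MOLM13, and the 17 members above 0 in both libraries had a median of 0.83. ENO1 (enolase) was at 5754 in HL60 and 2059.7 in the library labelled MOLM13, a log2 difference of 1.48, and LDHA (lactate dehydrogenase) at 2521 in HL60 and 936 in the library labelled MOLM13, neither called. The myeloid hexokinase HK3 was at 37.2 in HL60 and listed at 0 in the library labelled MOLM13, and so was TPI1 (triosephosphate isomerase) at 284, an enzyme that dividing cells need. PFKP, a phosphofructokinase, was lower at 56.6 in HL60 and 251 in the library labelled MOLM13.

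Respiratory chain genes differed little. None of the 13 mitochondrially encoded subunits was called, with a median of -0.17 and MT-CO1 at 1325 in HL60 and 1169 in the library labelled MOLM13. Of 49 nuclear subunits, 6 were higher and 1 lower, with a median of 0.42. NDUFA4, a subunit of cytochrome oxidase, was at 506 in HL60 and listed at 0 in the library labelled MOLM13. By deposited TPM it was also listed at 0 in K562 and was at 353 in THP_1, so its 0 was not taken as absence. ATP5F1C, the gamma subunit of ATP synthase, was lower at 259.8 in HL60 and 1243 in the library labelled MOLM13. Chaperones, cholesterol synthesis and stress response targets had medians of -0.26, 0.27 and -0.26, and the inducible HSPA1A (HSP70) was at 2.46 in HL60 and 46.8 in the library labelled MOLM13.

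**Figure D4:**
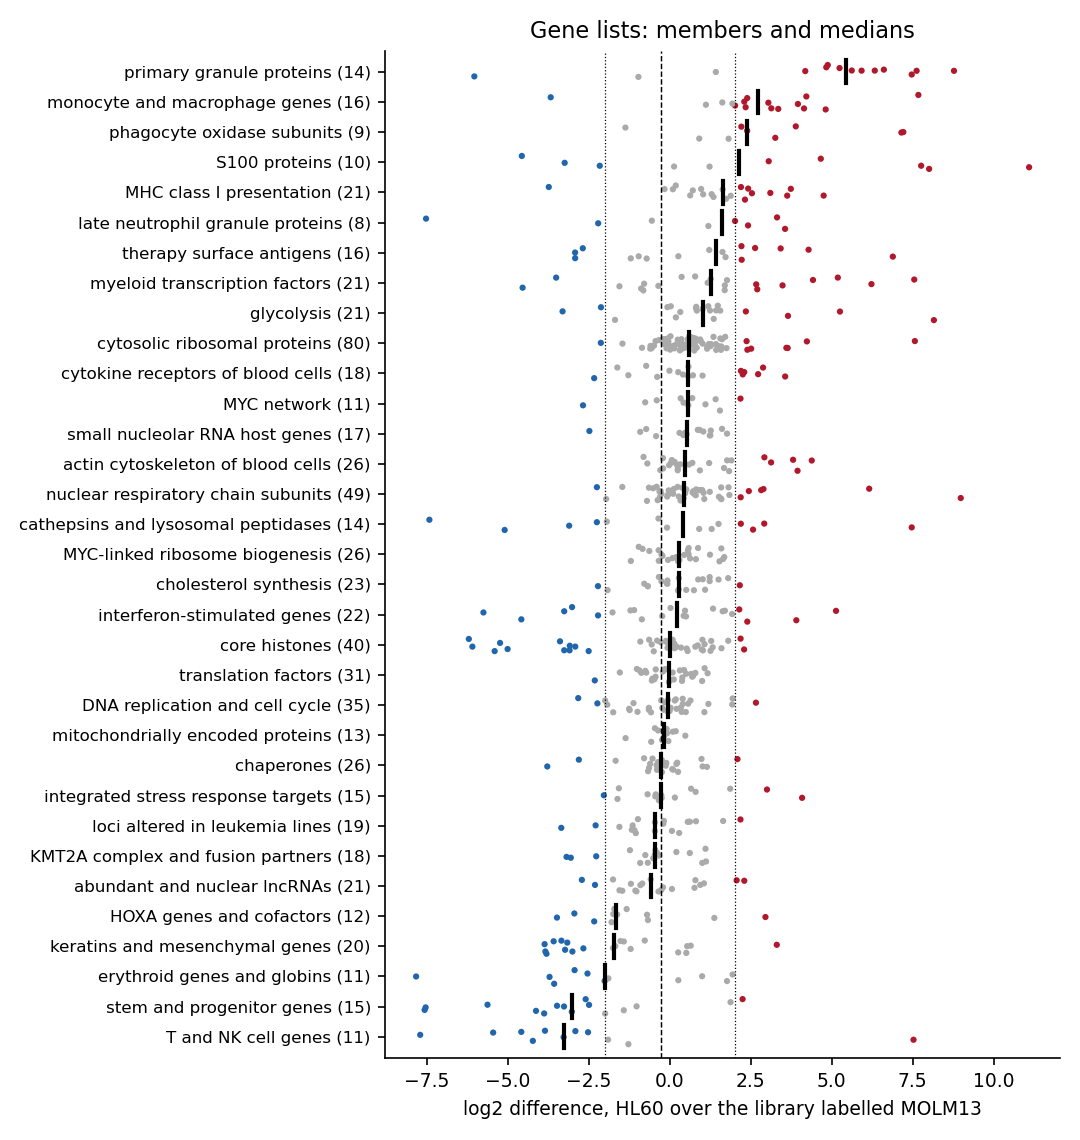
Each row is a gene list with at least 8 measured members (number in brackets), each point a member, red where called higher in HL60 and blue where called lower, and the bar the list's median; the x axis is the log2 difference, HL60 over the library labelled MOLM13. Medians run from -3.28 for T and NK cell genes to 5.43 for primary granule proteins, around the dashed line at the median of all genes, -0.28.

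Among the largest differences outside these lists, several belong to myeloid cells. MNDA, a nuclear protein of myeloid cells on chromosome 1 (bases 158831351 to 158849506 of the plus strand), was at 651 in HL60 and 1.37 in the library labelled MOLM13, 475-fold higher (interval 319 to 741). FPR2, a receptor for formylated peptides, was at 99.5 in HL60 and 0.0745 in the library labelled MOLM13, with 2.00 footprint equivalents in the library labelled MOLM13, which gives 1336-fold with an interval of 369.6 to 11033. MS4A3, a membrane protein of granulocyte precursors, CSTA, a protease inhibitor, and ALOX5AP, which hands arachidonic acid to 5-lipoxygenase, were at 484, 339 and 277 in HL60 and listed at 0 in the library labelled MOLM13. LIN7A, a scaffold protein of cell junctions, was at 154 in HL60 and 0.0766 in the library labelled MOLM13. GTSF1, known from the piRNA pathway of germ cells, was at 201 in HL60 and 1.28 in the library labelled MOLM13, and SERPINB2, an inhibitor of urokinase, at 117 in HL60 and 0.416 in the library labelled MOLM13. CHMP4A, an ESCRT-III subunit, was at 95.4 in HL60 and 0.169 in the library labelled MOLM13, but with under 1 footprint equivalent in the library labelled MOLM13 no fold is given.

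In the opposite direction the largest differences were of mixed kinds. ITM2A, a membrane protein of T cell and chondrocyte development on chromosome X (bases 79360384 to 79367667 of the minus strand), was listed at 0 in HL60 and at 709 in the library labelled MOLM13, from 11782 footprint equivalents. HPGDS, the prostaglandin D synthase of mast cells and helper T cells, and IL1RL1, the receptor for IL-33, were listed at 0 in HL60, against 138 and 65.6 in the library labelled MOLM13. The lectin-like receptors CLEC2B and KLRF2, neighbours in the NK gene complex of chromosome 12, were listed at 0 in HL60, against 74.2 and 66.1 in the library labelled MOLM13. HACD1, an enzyme of fatty acid elongation, was listed at 0 in HL60 and at 65.5 in the library labelled MOLM13. SMIM24 was at 1.10 in HL60 and 252 in the library labelled MOLM13, the profilin PFN2 at 0.854 in HL60 and 99.2 in the library labelled MOLM13 and TFPI, an inhibitor of coagulation, at 0.727 in HL60 and 87.6 in the library labelled MOLM13. The clone-named AC006064.6 and AC087721.2 were also listed at 0 in HL60, at 91.9 and 68.1 in the library labelled MOLM13, but share exons with CHD4 and NOP2 and with NUSAP1 and OIP5, so their signal cannot be told from those genes.

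Long non-coding RNA genes (lncRNAs), the subject of the series, were called about as often as coding genes. Of 731 tested lncRNA genes, 57 (7.8%) were higher and 88 (12%) lower in HL60. Of those without exon overlap, LINC01962 on chromosome 5 (bases 181178821 to 181191852 of the minus strand) had the largest difference, at 239.9 in HL60 from 12953 footprint equivalents and listed at 0 in the library labelled MOLM13. AC125603.2 and LINC00324 were at 36.7 and 18.1 in HL60 and listed at 0 in the library labelled MOLM13. In the opposite direction AL157895.1 on chromosome 10 (bases 19710328 to 19728550 of the minus strand) was at 0.0259 in HL60 and 137 in the library labelled MOLM13, from 1.07 and 1797 footprint equivalents, and AL359458.1 was listed at 0 in HL60 and at 134 in the library labelled MOLM13. Among well-known lncRNAs, the nuclear MALAT1 was at 93.4 in HL60 and 277 in the library labelled MOLM13, and HOTAIRM1, transcribed from the HOXA cluster, at 4.02 in HL60 and 23.9 in the library labelled MOLM13. Signal on an lncRNA is footprint-sized RNA and was not tested for translation.

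Small nucleolar RNAs (snoRNAs), which guide chemical modification of ribosomal RNA and are not translated, were much more often higher in HL60. Of 206 tested, 76 (36.9%) were higher and 17 (8.25%) lower. Of the 76 higher, 19 were listed at 0 in the shallower library labelled MOLM13, and of the 17 lower, 2 were listed at 0 in HL60. The part of depth in this split was not tested. Of 109 C/D box snoRNAs, which guide methylation, 46 were higher and 8 lower, with a median of 1.58, and of 85 H/ACA box snoRNAs, which guide pseudouridylation, 28 were higher and 5 lower, with a median of 0.83. By aligned bases 46 of the 206 were higher and 3 lower. As a class they held 13.1% of deposited TPM in HL60 and 5.72% in the library labelled MOLM13. Of aligned bases they held 1.05% in HL60 and 0.477% in the library labelled MOLM13.

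The C/D box snoRNAs SNORD6 and SNORD19B, with the largest differences of their kind, and the 3 of the host ZFAS1 are shown with their sequences, to set members of different hosts beside 3 from 1 host. All 5 were also called by aligned bases, and other C/D box snoRNAs, such as SNORD88A and SNORD69, had larger differences than those of ZFAS1. Sequences are from GENCODE release 29, 5′ to 3′ in DNA letters, with the C box TGATGA and the D box CTGA in capitals.
SNORD6, chr11:93731502-93731574, minus strand: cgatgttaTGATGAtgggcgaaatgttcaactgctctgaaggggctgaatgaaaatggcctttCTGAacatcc
SNORD19B, chr3:52690744-52690827, plus strand: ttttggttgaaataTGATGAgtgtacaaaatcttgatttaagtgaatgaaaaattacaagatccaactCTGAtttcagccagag
SNORD12, chr20:49280683-49280772, plus strand: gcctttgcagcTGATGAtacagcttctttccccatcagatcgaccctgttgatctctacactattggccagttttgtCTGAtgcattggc
SNORD12B, chr20:49280319-49280409, plus strand: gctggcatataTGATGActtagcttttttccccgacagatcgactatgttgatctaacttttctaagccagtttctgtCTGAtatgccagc
SNORD12C, chr20:49278940-49279028, plus strand: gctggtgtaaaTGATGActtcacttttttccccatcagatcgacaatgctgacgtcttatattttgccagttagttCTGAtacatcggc

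SNORD6, in an intron of TAF1D, was at 699 in HL60 and 1.43 in the library labelled MOLM13, from 1498 and 1.07 footprint equivalents. Its host gene had the opposite sign, at 55.0 in HL60 and 102 in the library labelled MOLM13. SNORD19B, in GNL3, was at 699 in HL60 and 7.74 in the library labelled MOLM13, with its host at 161 in HL60 and 167 in the library labelled MOLM13. The 3 snoRNAs of ZFAS1 went together: SNORD12 was at 923 in HL60 and 22.3 in the library labelled MOLM13, SNORD12B at 974 in HL60 and 30.1 in the library labelled MOLM13 and SNORD12C at 2366 in HL60 and 315 in the library labelled MOLM13, while ZFAS1 itself was at 174 in HL60 and 95.4 in the library labelled MOLM13. Of the 74 higher snoRNAs that lie inside a host gene, 47 had a host within a log2 difference of 1. This was so for 35 of 45 higher C/D box snoRNAs, against 87 of all 107 C/D box snoRNAs with a host. For the H/ACA box it was so for 11 of 27, against 51 of all 83. Over all 200 snoRNAs with a host it was so for 144, so such hosts were no more frequent among the higher snoRNAs. Both boxes as written were found in 76.3% of 278 SNORD genes of the annotation.

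**Figure D5:**
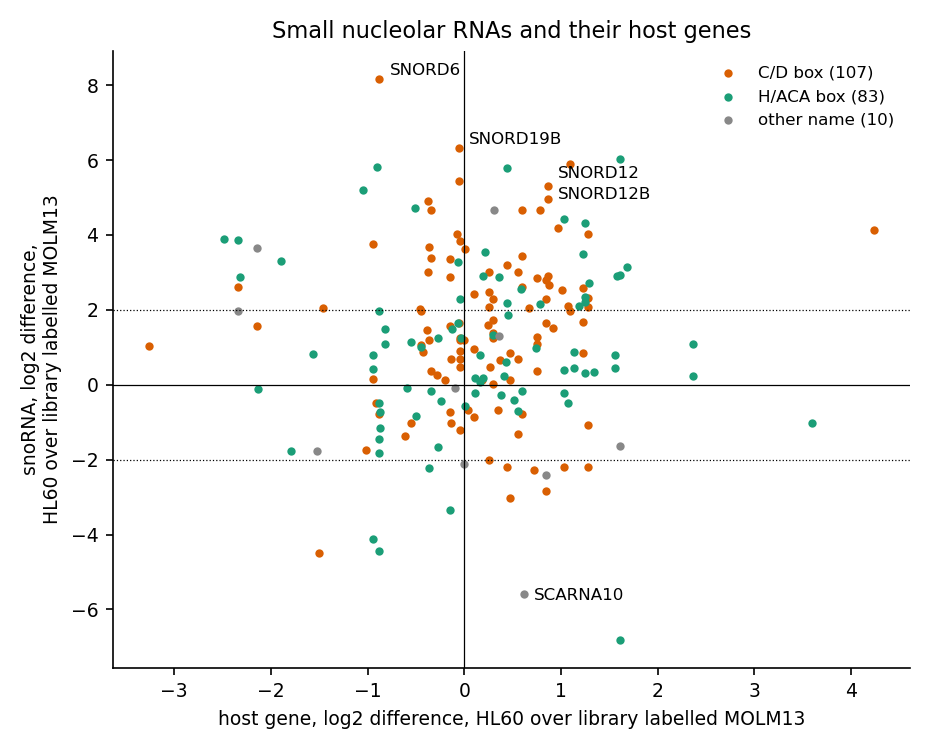
Each point is 1 of 200 snoRNAs inside a host gene, with the host's log2 difference on the x axis and the snoRNA's on the y axis, both HL60 over the library labelled MOLM13; dotted lines mark 2 and -2. Of the 74 snoRNAs called higher, 47 have a host within a log2 difference of 1, as do 144 of all 200. SNORD6 and SNORD19B lie at the top and SCARNA10 near the bottom.

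Among lower snoRNAs, SCARNA10, a Cajal body RNA in NCAPD2, was at 0.142 in HL60 and 53.5 in the library labelled MOLM13, and SNORA19, in EIF3A, at 23.4 in HL60 and 246 in the library labelled MOLM13. Other RNA classes moved less or in the opposite direction. Spliceosomal small nuclear RNAs took up 11.6% of summed TPM in HL60 and 15.2% in the library labelled MOLM13, and mitochondrial ribosomal RNA 6.85% of aligned bases in HL60 and 10.1% in the library labelled MOLM13. Of 1825 tested processed pseudogenes, reverse-transcribed copies of other genes, 218 (11.9%) were higher and 67 (3.67%) lower in HL60, but their reads may belong to the parent genes.

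Listing at 0 was also checked on genes that the other lines all carried. Of 2270 protein-coding genes with a deposited TPM of at least 20 in HL60, THP_1 and K562, 13 (0.573%) were listed at 0 in the library labelled MOLM13, among them TPI1, RPL26 and PFDN1, which serve all cells. Of 2394 such genes in the library labelled MOLM13, THP_1 and K562, 5 (0.209%) were listed at 0 in HL60. A 0 in these files is therefore a listed value and was not taken as absence of the mRNA.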

How the data were processed

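Footprints of ribosomes were measured in HL60 and in the library labelled MOLM13, 2 of the 4 lines of the study, each with a single library. Per the submitters' processing notes, StringTie 2.1.5, STAR 2.7.8a, Bowtie2 2.4.2 and Trim Galore 0.6.6 were used on hg38. Per the file headers, StringTie ran on GENCODE release 37 with no strand option. The deposited values, in attributes of other units within each record, are TPM, FPKM and mean coverage per transcript and coverage per exon, per the file headers.

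TPM was summed per gene and scaled by the median ratio over 4725 genes at a TPM of at least 10 in both libraries, by factors of 0.972 for HL60 and 1.03 for the library labelled MOLM13. Aligned bases are coverage times exon length. Genes were typed from GENCODE release 29 by ID (58361) or RefSeq by symbol (89), and 2201 were not typed. List members count as measured at a scaled TPM of at least 1 in either library.

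Named genes are, per direction, 15 coding genes above 0 in both libraries with the largest difference and 8 listed at 0 in one library. These 15 and 8 were drawn only from genes also called by aligned bases. Named too are 5 lncRNA genes without exon overlap per direction and up to 4 called members per list. Further members are named to describe a list. Members and lists were chosen with earlier results of these data known, and Y-linked genes and some others are not reported here. The 38 lists include some of fewer than 8 members. The call rule was tested on simulated data. Software was pandas 2.3.3, NumPy 2.4.6, SciPy 1.17.1 and Matplotlib 3.10.9 in Python 3.11.15.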

Additional observations from a re-analysis of the deposited data

How the results depend on the processing

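The counts of calls depend on the threshold and on how values near 0 are treated. The main counts are 960 genes higher and 1265 lower in HL60. They became 1694 and 2199 with a pseudocount of 0.1, 399 and 390 with a pseudocount of 5, 2092 and 3177 at a log2 difference of 1, and 494 and 491 at a log2 difference of 3. Leaving out genes listed at 0 gave 340 and 813, and leaving out genes that share an exon with another gene, an alternative chosen after seeing the data, gave 448 and 690; fewer genes are tested in both. Under the other 6 alternatives, each count stayed within 1.5 times the main one: deposited TPM, scaling over genes at a TPM of 50, aligned bases, and 3 other minimums of aligned bases.

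None of the 46 named coding genes changed sign or fell under a log2 difference of 2 with deposited TPM or either pseudocount. They had been chosen by large TPM differences or high levels, and had to be called by aligned bases as well. The outcome by aligned bases was thus fixed beforehand, and the choice by size left the other outcomes little room to differ. None of these outcomes is a check on the named genes. Of 38 list medians, 3 changed sign: interferon-stimulated genes were at 0.22 and, without genes listed at 0, at -0.24, core histones at 0.01 and, with deposited TPM, at -0.08, and metallothioneins at -0.13 and, by aligned bases, at 0.25. No paired analysis was possible because each line has 1 library. Depth was 973 aligned megabases in HL60 and 344 in the library labelled MOLM13, so low levels are less precise in the library labelled MOLM13.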
